A study of Mus musculus with 407 samples.

Results

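The genes described here are 8 genes of polyamine metabolism in mouse skeletal muscle: Odc1, Azin1, Amd1, Amd2, Srm, Sms, Sat1 and Smox. They were chosen by symbol from what their products are known to do, with earlier results of these data known. The shares of all genes given beside their counts are therefore a description and no test of the set. Each was found on 1 row of every count table, among 24458 gene symbols. Their RNA was measured in 4 muscles of male and female mice (gastrocnemius, tibialis anterior, soleus and diaphragm) at 6 ages, and the questions asked are whether their levels differ between the sexes and muscles and whether they change with age.

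Polyamines are small, positively charged molecules that bind RNA and DNA and are needed for growth and protein synthesis. Ornithine decarboxylase, the product of Odc1, makes putrescine from ornithine, and antizyme inhibitor, the product of Azin1, keeps antizyme from sending that enzyme to degradation. S-adenosylmethionine decarboxylase, the product of Amd1 and of its intronless copy Amd2, makes the aminopropyl donor that spermidine synthase (Srm) and spermine synthase (Sms) use to lengthen putrescine to spermidine and spermidine to spermine. Spermine oxidase (Smox) turns spermine back into spermidine, and Sat1 acetylates both for breakdown or export. Odc1 is known as an androgen-responsive gene in mouse tissues, and polyamines have been studied in muscle growth and wasting.

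The series held 407 RNA sequencing libraries from C57BL/6J mice of both sexes, aged 6, 12, 18, 21, 24 or 27 months, which make 48 groups of muscle, sex and age with 6 to 10 libraries each. The labels name no treatment and no engineered allele, and the youngest mice, at 6 months, are the reference for age. Mice of an age group were dissected on the same day, so age and day of collection cannot be told apart, and the labels do not tie the muscles to single mice. The libraries are separate samples by their labels, and p values below measure the spread between them. The same mouse may have given several muscles. The p values of comparisons between muscles below take no account of this and may be too small. Whole muscles were used, and in such bulk samples fewer cells of a type and less RNA per cell cannot be told apart.

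The 4 genes with the widest differences between the sexes below are Amd1, Amd2, Odc1 and Smox. The 250 bases before an annotated start site of each are shown here, because Amd1 and Amd2, whose transcripts are nearly the same, stand behind unlike sequence. The sequences and start sites are from the RefSeq promoter table of GRCm38.p6. They are written 5′ to 3′ on the strand of the gene, and have the letters GGGCGG (a GC box) in capitals on either strand. The windows of Odc1 and Smox reach past the first base of the gene in the annotation of gene positions (chr12:17544808 and chr2:131491858).
Amd1, chr10:40302189-40302438, minus strand: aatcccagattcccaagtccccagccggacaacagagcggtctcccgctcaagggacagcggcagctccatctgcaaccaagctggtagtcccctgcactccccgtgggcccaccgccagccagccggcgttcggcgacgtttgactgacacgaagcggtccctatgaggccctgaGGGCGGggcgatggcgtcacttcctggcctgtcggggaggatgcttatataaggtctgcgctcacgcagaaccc
Amd2, chr10:35711892-35712141, minus strand: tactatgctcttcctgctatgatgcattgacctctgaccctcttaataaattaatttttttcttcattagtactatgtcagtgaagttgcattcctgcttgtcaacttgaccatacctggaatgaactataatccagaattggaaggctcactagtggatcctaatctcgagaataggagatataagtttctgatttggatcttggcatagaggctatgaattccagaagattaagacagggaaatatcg
Odc1, chr12:17544623-17544872, plus strand: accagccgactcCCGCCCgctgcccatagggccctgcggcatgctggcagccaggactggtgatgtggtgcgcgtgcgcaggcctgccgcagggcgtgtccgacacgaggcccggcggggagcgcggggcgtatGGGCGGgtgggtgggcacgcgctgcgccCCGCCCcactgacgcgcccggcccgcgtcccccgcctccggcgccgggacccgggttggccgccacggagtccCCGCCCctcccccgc
Smox, chr2:131491612-131491861, plus strand: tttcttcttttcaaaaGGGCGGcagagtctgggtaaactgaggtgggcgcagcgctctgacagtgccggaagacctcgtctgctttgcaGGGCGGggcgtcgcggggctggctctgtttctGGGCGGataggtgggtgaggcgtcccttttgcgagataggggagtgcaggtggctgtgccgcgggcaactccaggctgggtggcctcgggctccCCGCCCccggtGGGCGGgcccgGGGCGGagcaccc
In this window Amd1 had 1 GC box, whose first base lay 74 bases before the start, Odc1 had 4, Smox had 6 and Amd2 had none. The GC content was 64.4% for Amd1, 80.0% for Odc1 and 68.0% for Smox, against 37.6% for Amd2. A GC box was present in 32.74% of the 32851 promoters of the table. The other motifs were searched on both strands, and no window of these 4 genes held any of them: CACGTG (an E-box, in 6.02% of promoters), TGTTCT (a steroid half-site, 16.08%), the full steroid response element, made of a pair of facing half-sites and so containing the half-site (0.01%), and TATAAA (12.37%). The table also held Sat1, whose window had a half-site 191 bases before the start and 2 GC boxes, and Sms with 2 windows, of which 1 had an E-box and the other 4 GC boxes.

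Total counts per library ranged from 38583802 to 300089909, with a median of 72766895 and a second highest of 104836980. The summed level of 6 muscle markers was at least 59694 CPM (counts scaled to library size) in every library, and the slow-fibre markers were highest in the soleus, with medians of 13169 CPM in females and 8331 in males. Summed liver transcripts exceeded 10 times the median of their muscle and sex in 26 libraries. In 9 libraries (8 of diaphragm, 1 of male soleus at 24 months) log2 CPM correlated below 0.95 with the median of their muscle and sex. At 6 and 27 months, 4 of these diaphragm libraries had Smox levels between 0.0783 and 0.465 CPM, where the group medians of the diaphragm were 2.58 to 3.43 CPM. Without the 9 libraries the sex difference of Odc1 in the diaphragm was 0.14 and still passed the test.

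Amd1 lies at chr10:40287458-40302188 on the minus strand of GRCm38.p6 with 8 exons, and Amd2 at chr10:35708691-35711891 on the same strand with 1 exon. Of the 76-base stretches of the longest coding Amd1 transcript of GENCODE, 79.3% (2481 of 3129) are found unchanged in Amd2, and 78.9% of those of Amd2 (2481 of 3143) in Amd1. Most such stretches, taken singly, thus cannot be assigned to either gene by sequence. Reads were sequenced in pairs, and the share of pairs with both reads in shared stretches was not computed. The ratio of Amd1 to Amd2 was 0.657 at the median, and 395 libraries had a ratio between 0.419 and 0.953. The other 12, of which 6 were of diaphragm, 5 of soleus and 1 of gastrocnemius, had a ratio above 1 or below 0.3. In the most unequal one, female gastrocnemius at 21 months number 5, 80 counts went to Amd1 and 14160 to Amd2, and in female soleus at 27 months number 4 the counts were 4761 and 506. In 7 of these 12 libraries the sum of both genes lay within the range of the other libraries of the group, and in the rest it lay outside. These counts do not show that summing restores the level. Because most of the sequence is shared, the sum is the value used below for S-adenosylmethionine decarboxylase. The single genes are given where they differ from it.

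**Figure D1:**
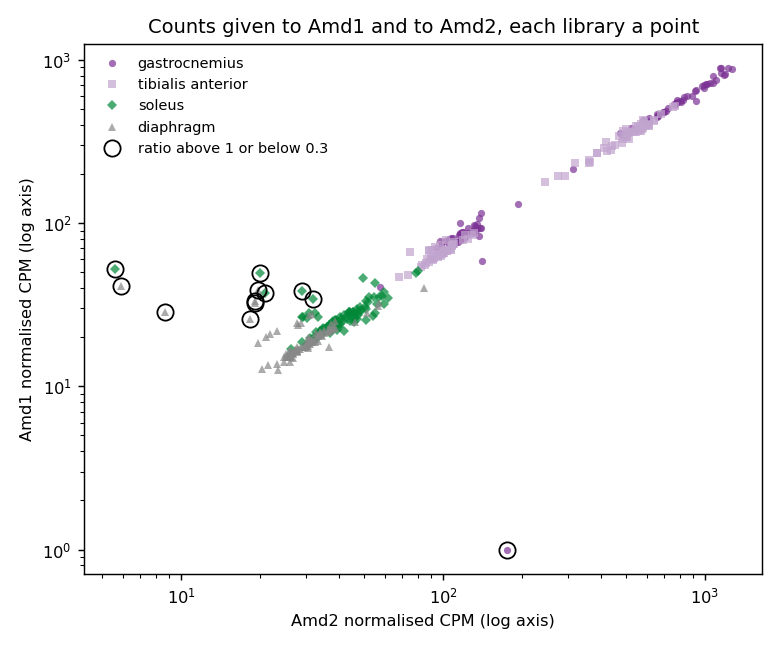
Normalised CPM given to Amd2 (x axis, log scale) and to Amd1 (y axis, log scale) in each library, with muscles by marker and the 12 libraries with an unequal split circled. Outside the circled points, the ratio stays between 0.419 and 0.953 in all 4 muscles.

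The levels of all 8 genes differed between males and females in the gastrocnemius and in the tibialis anterior, and 4 of them (Amd1, Amd2, Odc1 and Smox) did so by more than 1.5-fold in each. Differences are given as log2 of male over female, as the mean of the 6 ages with its standard error (SE). They come from quasi-likelihood tests in edgeR with p adjusted by Benjamini-Hochberg over all genes tested. Levels of the 8 members are normalised CPM, which allow a gene to be compared across libraries but not genes with each other. Levels of other genes and summed levels of marker lists are CPM scaled to library size only. In both muscles 7 members were higher and 1, Sat1, was lower in males at an adjusted p below 0.05, where 58.3% of 15732 genes differed in the gastrocnemius and 47.8% of 14943 in the tibialis anterior. The median over the members was 0.96 in the gastrocnemius and 0.79 in the tibialis anterior, against -0.02 and 0 over all genes tested. More than 1.5-fold differences were found for 4 of 8 members in each muscle and for 8.17% and 5.27% of all genes. Amd1 and Amd2 enter this and the other counts of members as separate genes, unless they are said to be summed. Most of their transcript sequence is shared, so their common signal is counted for both. In the soleus 4 of 8 members differed (30.9% of 15903 genes) and in the diaphragm 1 of 8 (18.9% of 16613 genes), 0 of them by more than 1.5-fold (3.97% and 5.18% of genes). Both counts of 0 over 1.5-fold from edgeR were also 0 at an unadjusted p below 0.05 and in limma-voom.

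The sum of Amd1 and Amd2 separated the sexes furthest. In the gastrocnemius it was 97.7 CPM at the lowest, 203 at the median and 255 at the highest in 52 female libraries, and 323, 1339 and 2140 CPM in 52 male libraries. No female library reached the lowest male one, at any age or over all ages together. The difference was 2.74 ± 0.05 (6.68-fold, adjusted p = 9.59e-71). In the tibialis anterior the sum was 115, 161 and 218 CPM in 51 females and 213, 879 and 1290 in 51 males, a difference of 2.38 ± 0.06 (adjusted p = 2.56e-60). The ranges touched there over all ages, since the lowest male library, of 27 months, lay just under the highest female one, of 24 months, but within each of the 6 ages they did not overlap. In the soleus, with 43.1, 60.1 and 73.9 CPM in females and 48.1, 73.6 and 132 in males, the sexes overlapped over all ages together but not at 2 of the 6 ages, and differed by 0.34 ± 0.04 (adjusted p = 4.75e-11). In the diaphragm, with medians of 44.2 and 50.5 CPM, the difference of 0.15 ± 0.06 did not pass (adjusted p = 0.0769, 95% interval 0.03 to 0.27).

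**Figure D2:**
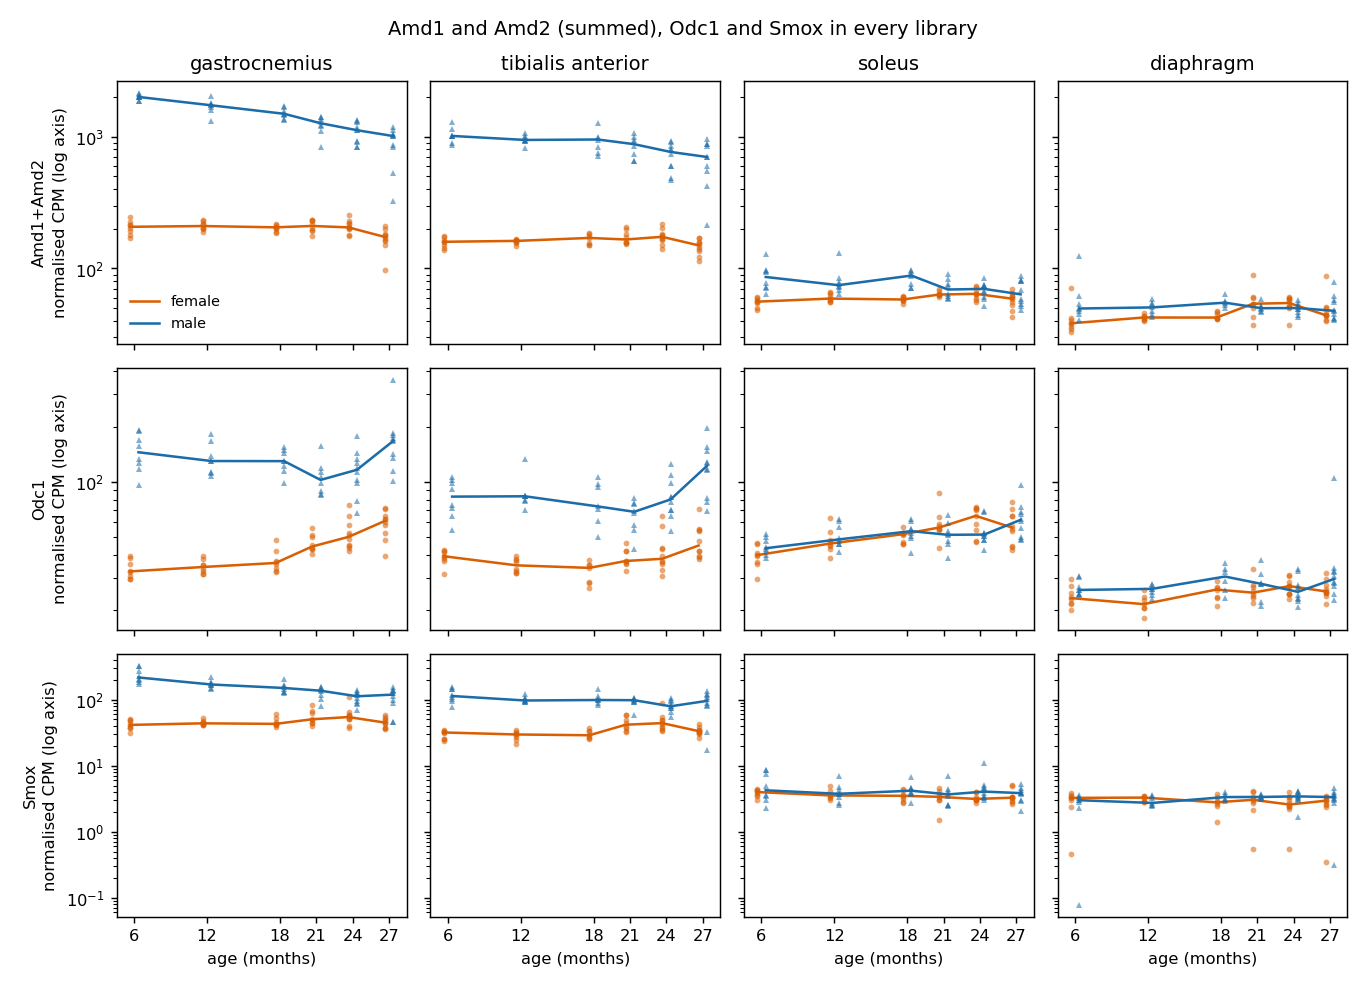
Normalised CPM (y axis, log scale) of the sum of Amd1 and Amd2, of Odc1 and of Smox against age in months, 1 column of panels per muscle. Each point is a library (circles female, triangles male) and lines join the group medians. The male points of the summed genes lie above the female ones in the gastrocnemius and tibialis anterior at every age, and fall in the male gastrocnemius from a median of 1997 to 1008 CPM.

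Odc1, the first enzyme of synthesis, had 29.4, 42.4 and 74.5 CPM (lowest, median, highest) in female gastrocnemius and 67.9, 129 and 361 in male, a difference of 1.62 ± 0.06 (3.07-fold, adjusted p = 4.14e-44). The sexes did not overlap at 5 of the 6 ages. In the tibialis anterior the values were 26.2, 37.8 and 70.9 CPM in females and 43.1, 81.8 and 196 in males, with no overlap at 3 of the 6 ages and a difference of 1.14 ± 0.06 (2.20-fold). In the soleus the medians were 52.3 and 51.0 CPM and the difference was 0.01 ± 0.05, with a 95% interval of -0.08 to 0.10. In the diaphragm Odc1 was the member that passed the test, at 0.19 ± 0.06 (adjusted p = 0.0139), with medians of 24.7 and 26.8 CPM and overlapping ranges. Smox, which oxidises spermine, had 31.4, 45.3 and 109 CPM in female gastrocnemius and 45.7, 141 and 321 in male, a difference of 1.58 ± 0.07 (2.98-fold, adjusted p = 6.80e-40). Its difference was 1.48 ± 0.07 (2.79-fold) in the tibialis anterior and 0.27 ± 0.08 in the soleus, where the limma-voom fit did not call it. In the diaphragm it was 0.15 ± 0.13 and did not pass. Male and female Smox levels did not overlap at 3 of the 6 ages in the gastrocnemius and in the tibialis anterior and overlapped at all ages in the soleus.

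The other 4 members differed less. Sms, spermine synthase, was 0.34 ± 0.03 higher in males in the gastrocnemius (medians 86.7 and 112 CPM) and 0.44 ± 0.02 in the tibialis anterior (medians 76.8 and 103 CPM), without overlap at 3 and 4 of the 6 ages. In the soleus and diaphragm its differences were near 0 (95% interval -0.08 to 0.08 in the soleus) and 0.02 ± 0.07, and neither passed. Azin1 was 0.25 ± 0.03 and 0.17 ± 0.05 higher in males in the gastrocnemius and tibialis anterior. Srm, spermidine synthase, was 0.15 ± 0.04 and 0.12 ± 0.05 higher there and lower in male soleus (-0.17 ± 0.07), the last of which did not pass without the libraries with liver transcripts. Sat1 was lower in males in the gastrocnemius (-0.14 ± 0.04) and in the tibialis anterior (-0.17 ± 0.07), where the call was lost without the libraries with liver transcripts. For Azin1, Srm and Sat1 the sexes overlapped at all 6 ages in every limb muscle.

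**Figure D3:**
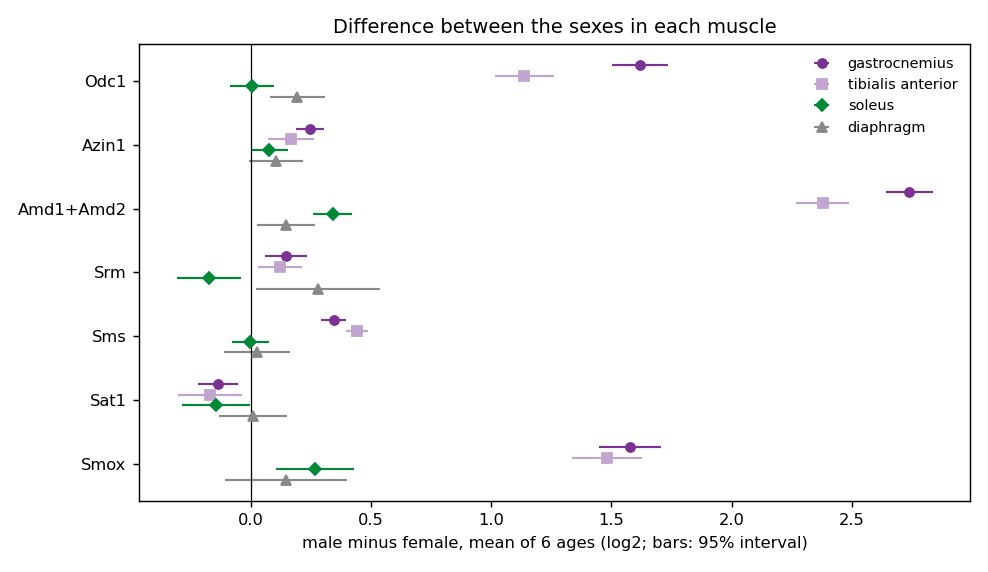
Difference between the sexes as log2 of male over female, mean of 6 ages (x axis), for each gene (y axis) in each muscle, with bars for the 95% interval. In the gastrocnemius and tibialis anterior Amd1 and Amd2 summed, Odc1 and Smox lie above 1, and in the soleus and diaphragm all genes lie below 0.5.

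The difference between the sexes itself differed between muscles for 6 of 8 members (F test over the 4 muscles, edgeR, a comparison added after the data were seen), where 32.8% of 17580 genes did. Azin1 (adjusted p = 0.0713) and Sat1 (adjusted p = 0.309) were the members that did not pass. For the summed genes it was larger by 2.40 ± 0.07 in the gastrocnemius than in the soleus, by 0.37 ± 0.07 than in the tibialis anterior, and diaphragm minus gastrocnemius was -2.60 ± 0.07. The sex difference of the soleus and that of the diaphragm lay closer, with diaphragm minus soleus at -0.19 ± 0.07 (adjusted p = 0.0487). For Odc1 the gastrocnemius exceeded the tibialis anterior by 0.50 ± 0.08 and the soleus by 1.62 ± 0.08. For Smox the gastrocnemius and the tibialis anterior could not be separated (0.11 ± 0.12, 95% interval -0.12 to 0.34), with gastrocnemius minus soleus at 1.31 ± 0.12 and soleus minus tibialis anterior at -1.20 ± 0.12.

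The submitters' sample numbers fall into runs of consecutive numbers, of which 2 hold 256 and 146 libraries. Within them the sex difference of the summed genes in the gastrocnemius was 2.79 and 2.69, and that of Odc1 1.59 and 1.63, so it was as large within a run as over all libraries. Genes of other programmes also differed between the sexes. Of 6 slow-fibre genes (Myh7, Tnni1, Tnnt1, Tnnc1, Myl2 and Myl3), 6 were lower in males in each of the 3 limb muscles (gastrocnemius, tibialis anterior, soleus), with median differences of -1.34, -1.51 and -0.65. Their summed level ran from 453 to 1481 CPM in female and 182 to 791 in male gastrocnemius, from 15.0 to 163 and 6.41 to 33.5 CPM in tibialis anterior, and from 10553 to 16822 and 5076 to 10748 CPM in soleus. All 6 adipocyte markers were lower in male gastrocnemius (summed 32.0 to 144 CPM in females, 14.9 to 106 in males) and 3 of 6 in male tibialis anterior, and 5 of 5 Schwann cell markers were lower in both. None of the slow-fibre, adipocyte or Schwann cell markers was at 0 throughout, and the part of these genes in the sex difference of the polyamine genes was not tested.

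Muscle by muscle, the levels followed 3 orders. All 8 members passed the F test over the 4 muscles in each sex, as did 97.6% of 17027 genes in females and 96.8% of 17005 in males, so that count says little about the members. The summed Amd genes, Smox and Sms were highest in the gastrocnemius, then in the tibialis anterior, the soleus and the diaphragm, in both sexes. For Smox, gastrocnemius minus soleus was 3.76 in females and 5.09 in males and diaphragm minus gastrocnemius -4.08 and -5.61, the widest of any member. For the summed genes gastrocnemius minus soleus was 1.73 in females and 4.14 in males, and for Sms 1.78 and 2.14. Neighbours in this order differed at an adjusted p below 0.05, except the gastrocnemius and tibialis anterior for Sms in males (0.04). Smox and the summed genes were thus far apart between the muscles even in females, where the gastrocnemius held 203 CPM of the sum and the soleus 60.1 at the median.

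Sat1 had the opposite order. It was highest in the diaphragm, at medians of 7.41 CPM in females and 7.39 in males, followed by the soleus (6.22 and 5.35), and the gastrocnemius and tibialis anterior did not differ at the test threshold. Odc1 was highest in the soleus in females, with medians of 52.3 CPM there, 42.4 in the gastrocnemius, 37.8 in the tibialis anterior and 24.7 in the diaphragm. In males it was highest in the gastrocnemius, with gastrocnemius minus soleus at 1.34 against -0.30 in females. Azin1, which overlaps the antisense gene Gm49077 in the annotation and whose reads cannot be told from those of that gene if counting did not use strand, varied little, with medians from 36.8 to 52.1 CPM and its highest level in the soleus, and Srm the least, with medians from 3.51 to 4.44 CPM. In females the median over all genes moved by 0.15 between diaphragm and tibialis anterior and by 0.10 between diaphragm and gastrocnemius, so differences of that size with the diaphragm cannot be read as those of single genes.

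**Figure D4:**
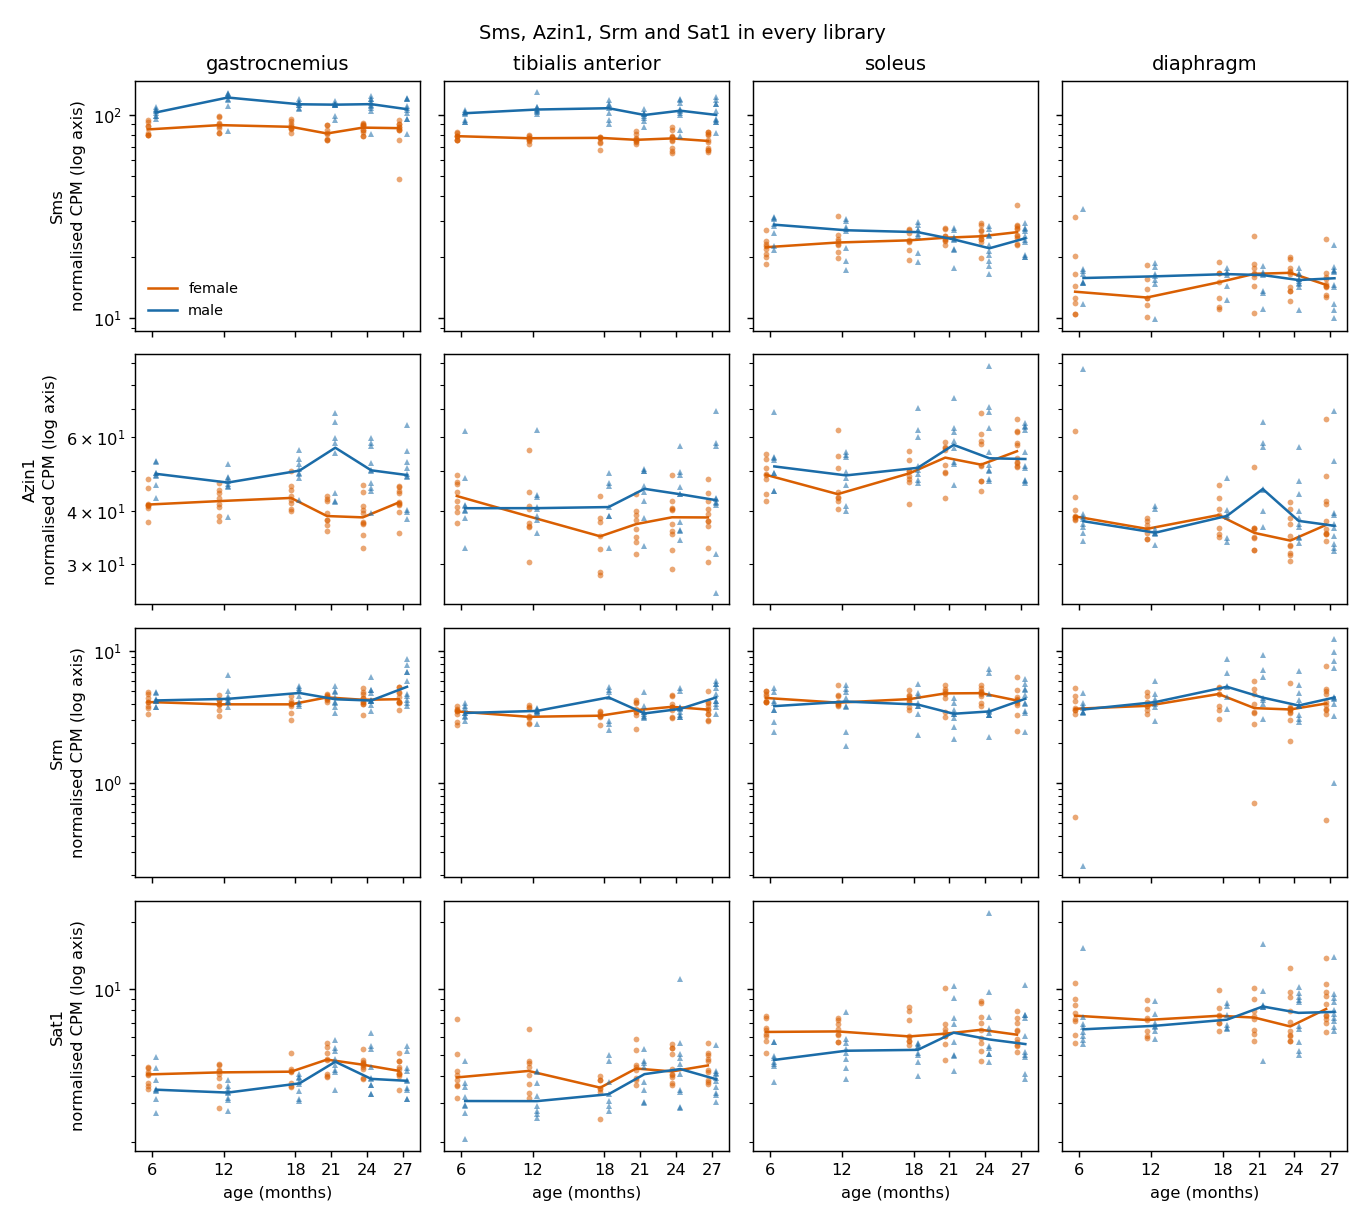
Normalised CPM (y axis, log scale) of Sms, Azin1, Srm and Sat1 against age in months, 1 column of panels per muscle, with a point per library (circles female, triangles male) and lines through the group medians. Sms is higher in males in the gastrocnemius and tibialis anterior, and single diaphragm libraries of 6 and 27 months stand far from their groups.

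With age, the summed Amd genes and Smox fell in the gastrocnemius of males, Odc1 rose in 5 of the 6 limb muscle groups, and no member passed the test in the diaphragm at 27 months. Between 27 and 6 months 4 of 8 members changed in male gastrocnemius (23.3% of all genes tested), 4 in male tibialis anterior (17.8%), 2 in male soleus (2.85%), 2 in female gastrocnemius (29.3%), 3 in female soleus (18.8%), 1 in female tibialis anterior (21.9%) and 0 in female (1.61%) and male diaphragm (8.65%). With the 1.5-fold limit the counts were 3 (5.41%) in male gastrocnemius, 1 (4.1%) in male tibialis anterior, 1 (4.98%) in female gastrocnemius and 0 in female soleus (4.13%), female tibialis anterior (7.01%), male soleus (1.19%) and female (1.24%) and male diaphragm (5.6%). In the diaphragm edgeR called 0 members at any fold in either sex, as did limma-voom and DESeq2, while at p below 0.05 without adjustment the count was 0 in females and 2 in males (1 of them over 1.5-fold). The zeros over 1.5-fold in soleus and female tibialis anterior were 0 by each of these measures. The members moved both ways, and their median was between -0.04 and 0.15 in the 8 groups, where that of all genes was between -0.03 and 0.03. Calls at other ages are given below for ages at which the share of all genes changed was 2.99%, 10.2% and 14.6% at 18, 21 and 24 months in male gastrocnemius, 15.4% at 24 months in male tibialis anterior, 15.8% and 19.2% at 21 and 24 months in female gastrocnemius, 22.7% and 23.3% in female soleus and 10.7% and 16.3% in female tibialis anterior.

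In male gastrocnemius the summed Amd genes stood at 1853, 1997 and 2140 CPM (lowest, median, highest) in 8 libraries of 6 months. Their medians were 1726 CPM at 12 months, 1488 at 18, 1262 at 21, 1117 at 24 and 1008 at 27, where the range was 323 to 1175 CPM in 10 libraries. All 10 libraries of 27 months lay below the lowest of 6 months. The log2 change was -0.69 ± 0.14 at 21 months, -0.87 ± 0.14 at 24 and -1.15 ± 0.14 at 27 (2.21-fold, adjusted p = 1.08e-08), and those of 12 and 18 months did not pass. As a difference of means it was -1.02 and -1.56 within the 2 large runs of sample numbers. These rest on 6 libraries of 27 months against 6 of 6 months, and on 4 against 2. With any single library of 6 or 27 months left out it was between -1.30 and -1.09. In male tibialis anterior the medians were 1011 CPM at 6 months, 765 at 24 and 700 at 27, with ranges of 860 to 1290 CPM at 6 and 213 to 965 at 27, and 7 of 10 libraries lay below the lowest of 6 months. The changes were -0.51 ± 0.16 at 24 months and -0.59 ± 0.16 at 27 (adjusted p = 0.00646). Within the runs the change at 27 months was -0.47 (6 libraries against 6) and -1.09 (4 against 2). Without the libraries numbered 6 and 8 at 27 months, the lowest of both groups, the single genes were at -0.96 (Amd1) and -0.94 (Amd2) in the gastrocnemius and at -0.39 and -0.43 in the tibialis anterior, and each still passed.

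In female gastrocnemius the sum was between 171 and 245 CPM at 6 months and between 97.7 and 211 at 27, a change of -0.27 ± 0.08 (adjusted p = 0.00842), with 4 of 10 libraries below the lowest of 6 months. Of the single genes Amd2 passed there (-0.25 ± 0.08), but not without the libraries numbered 0, where it was -0.17. In male soleus Amd1 was lower at 27 months (-0.49 ± 0.13, adjusted p = 0.0262) but the sum, at -0.39 ± 0.13, did not pass (adjusted p = 0.0739), with 5 of 10 libraries below the lowest of 6 months in either case. That Amd1 call was also lost without the libraries numbered 0, 1 or 2 and without those numbered 6 and 8 at 27 months (-0.41). In female soleus the sum rose by 0.21 ± 0.06 at 21 months and 0.22 ± 0.06 at 24, and stood at 0.05 ± 0.06 at 27. In female tibialis anterior it was -0.08 ± 0.07 at 27 months and did not pass.

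Smox followed the Amd genes in male gastrocnemius. It had 173, 216 and 321 CPM at 6 months, medians of 169, 150, 136 and 112 at 12, 18, 21 and 24 months, and 45.7, 119 and 156 at 27 months, where all 10 libraries lay below the lowest of 6 months. Its change was -0.63 ± 0.18 at 18 months, -0.88 ± 0.18 at 21, -1.12 ± 0.17 at 24 and -1.11 ± 0.17 at 27 (adjusted p = 2.17e-06). In male tibialis anterior it went from a median of 113 to 95.5 CPM and did not pass (-0.40 ± 0.20, adjusted p = 0.162). In females Smox moved the other way for a time. It rose in the gastrocnemius by 0.41 ± 0.14 at 21 months and 0.46 ± 0.13 at 24, and in the tibialis anterior by 0.56 ± 0.14 and 0.67 ± 0.13, where the median went from 31.8 CPM at 6 months to 41.6 and 44.0. At 27 months, with medians of 44.8 CPM in the gastrocnemius and 33.3 in the tibialis anterior, it passed in neither (0.12 ± 0.13 and 0.20 ± 0.13).

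**Figure D5:**
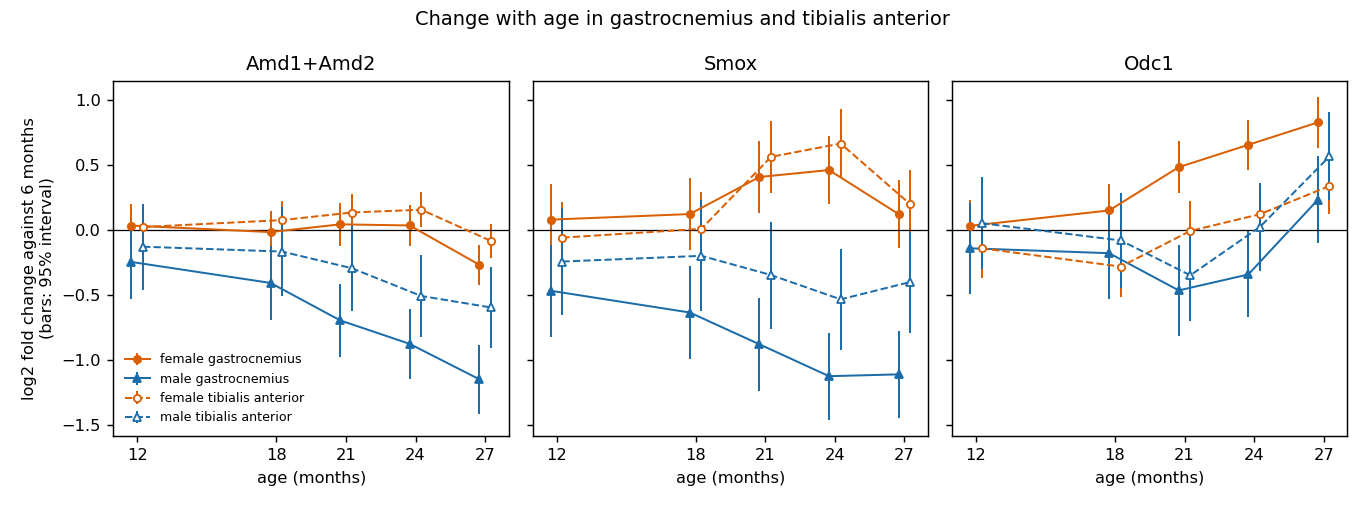
Log2 fold change against 6 months (y axis) at each older age (x axis, months) for Amd1 and Amd2 summed, Smox and Odc1 in the gastrocnemius (filled) and tibialis anterior (open) of females (circles) and males (triangles), with bars for the 95% interval. The summed genes and Smox fall in male gastrocnemius to -1.15 and -1.11, while Odc1 rises in female gastrocnemius to 0.83.

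Odc1 rose with age in limb muscles of both sexes. In female gastrocnemius it had 29.4, 32.4 and 39.6 CPM at 6 months and 39.1, 61.1 and 72.1 at 27, and 9 of 10 libraries lay above the highest of 6 months. The change was 0.48 ± 0.10 at 21 months, 0.66 ± 0.10 at 24 and 0.83 ± 0.10 at 27 (1.78-fold, adjusted p = 5.82e-09). Within the runs it was 0.76 (8 libraries of 27 months against 6 of 6 months) and 0.99 (2 against 2). In female soleus it rose from a median of 39.8 CPM to 56.3 at 21 months, 65.2 at 24 and 56.2 at 27 (0.60 ± 0.12, 0.66 ± 0.11 and 0.56 ± 0.11), with 7 of 10 libraries of 27 months above the highest of 6 months. In male soleus it rose by 0.50 ± 0.11 at 27 months (adjusted p = 0.00357, medians 43.4 and 62.0 CPM), again with 7 of 10 above the highest. In the tibialis anterior it rose by 0.34 ± 0.11 in females, with 5 of 10 libraries above the highest of 6 months, and by 0.57 ± 0.17 in males, with 7 of 10. Both of these calls were lost when the libraries of a replicate number were left out at all ages, number 2, 5 or 7 in females and 1, 3 or 7 in males. The female call was also lost without the libraries with liver transcripts, and the male call without those numbered 6 and 8 at 27 months (0.45). With any single library of 6 or 27 months left out, the difference of means was 0.23 to 0.33 in females and 0.43 to 0.60 in males. Within the runs it was 0.38 (8 libraries of 27 months against 6 of 6 months) and -0.02 (2 against 2) in females. In males it was 0.39 (6 against 6) and 0.80 (4 against 2). In male gastrocnemius Odc1 did not pass (0.23 ± 0.17, adjusted p = 0.329), with 95.5, 145 and 192 CPM at 6 months and 101, 167 and 361 at 27.

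In males the median level of Odc1 was lowest at 21 months in the gastrocnemius and in the tibialis anterior. Its medians in male gastrocnemius were 145 CPM at 6 months, 102 at 21 and 167 at 27, and in male tibialis anterior 83.0, 68.6 and 122. The change from 6 to 27 months did not differ between the sexes for Odc1 in any muscle at an adjusted p below 0.05 (gastrocnemius, male minus female, -0.57 ± 0.20, 95% interval -0.96 to -0.18, adjusted p = 0.122).

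The other members changed less with age. Srm rose in male gastrocnemius (0.44 ± 0.13, adjusted p = 0.00825, medians 4.24 and 5.39 CPM, 5 of 10 libraries above the highest of 6 months) and male tibialis anterior (0.44 ± 0.13, adjusted p = 0.0103, 7 of 10). In male diaphragm its change was 0.82 ± 0.32 and did not pass (adjusted p = 0.0958), from a group whose lowest library, at 0.235 CPM, is among the 9 that stand apart. Sms and Azin1 rose in female soleus, by 0.28 ± 0.08 (medians 22.4 and 26.5 CPM) and 0.21 ± 0.08 (medians 48.9 and 55.6 CPM). The call of Azin1 was lost without the libraries numbered 0, 2, 3, 4, 8 or 9. Sat1 passed at a single age in each of 2 groups, in female gastrocnemius at 21 months (0.26 ± 0.09) and in male tibialis anterior at 24 months (0.59 ± 0.19, with 2.87, 4.30 and 11.1 CPM against 2.06, 3.08 and 4.70 at 6 months), and in neither at 27 months.

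The change from 6 to 27 months differed between the sexes for 2 of 8 members in the gastrocnemius (1.6% of all genes), 1 in the soleus (0.855%), 0 in the tibialis anterior (1.73%) and 0 in the diaphragm (0%). Before adjustment, 3 members had p below 0.05 in the tibialis anterior and 0 in the diaphragm, and limma-voom called 0 in both and also 0 in the soleus. In the gastrocnemius, male minus female was -0.86 ± 0.16 for the summed genes (adjusted p = 2.67e-04) and -1.22 ± 0.22 for Smox (adjusted p = 2.08e-04). The sexes thus lay closer at 27 months than at 6, at 2.41 ± 0.11 against 3.27 ± 0.13 for the summed genes and 1.26 ± 0.15 against 2.48 ± 0.17 for Smox. In the soleus it was -0.79 ± 0.20 for Amd1 (adjusted p = 0.0347), but the sum did not pass (-0.43 ± 0.14, adjusted p = 0.110) and limma-voom did not call Amd1. That call was also lost without the male libraries numbered 6 and 8 at 27 months (-0.71). In the tibialis anterior the sum was at -0.51 ± 0.18 and did not pass (adjusted p = 0.117).

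The change from 6 to 27 months also differed between muscles in an F test over the 4 muscles, for 3 of 8 members in males (Amd1, Amd2 and Smox, 4.15% of 17005 genes) and 1 of 8 in females (Odc1, 13.3% of 17027 genes). In males the summed genes fell more in the gastrocnemius than in the diaphragm (diaphragm minus gastrocnemius 0.98 ± 0.21, adjusted p = 0.00104) and the soleus (gastrocnemius minus soleus -0.77 ± 0.21, adjusted p = 0.0444), and Smox more than in the diaphragm (1.38 ± 0.31). In females Odc1 rose more in the gastrocnemius than in the diaphragm (diaphragm minus gastrocnemius -0.70 ± 0.15, adjusted p = 6.35e-04). The gastrocnemius and tibialis anterior were not separated for any member in either sex.

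A trend rule adapted from that of the study asked for a change over 1.5-fold at any age and for a line or a logistic curve over the logarithm of age that improves on a constant. The study asks for Bonferroni adjustment of the changes, and here Benjamini-Hochberg was used, by which 7 combinations of member, muscle and sex were age-related. With Bonferroni adjustment (added after the data were seen) they were 5, without Amd2 in male tibialis anterior and Smox in female tibialis anterior. Amd1 and Amd2 in male gastrocnemius were late-logistic down, with the inflection at 27 months, the limit of the search, and linear down if age was taken in months. Amd2 in male tibialis anterior and Smox in male gastrocnemius were linear down. Odc1 was late-logistic up in female gastrocnemius, with the inflection at 21.25 months, and linear up in female soleus. Smox in female tibialis anterior was mid-logistic up (18.75 months), although its level at 27 months did not pass. Sat1 in male tibialis anterior passed at 24 months and had no trend.

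Markers of muscle denervation moved with age beside these genes. Of 8 such genes (Chrng, Chrna1, Chrnd, Myog, Musk, Ncam1, Gadd45a and Runx1), 8 rose at 27 months in the gastrocnemius of each sex and in male tibialis anterior and 7 in female tibialis anterior, with median changes of 1.08 and 1.18 in female and male gastrocnemius and 1.34 and 0.99 in female and male tibialis anterior. A rise here means an adjusted p below 0.05 (Benjamini-Hochberg). The study used Bonferroni adjustment, a 1.5-fold limit and its trend rule. By these it reports, from male mice, no increase of Chrnd, Musk and Ncam1 in old muscles, except for Chrnd in the gastrocnemius. The female counts given here have no counterpart in that statement. The summed level of the 8 genes in male gastrocnemius was 100.3 to 124 CPM at 6 months and 170.3 to 293 at 27. In the soleus 5 rose in females and 6 in males (medians 0.65 and 0.59), and in the diaphragm 0 and 2 (0.12 and 0.29). The part of these genes in the changes of the polyamine genes was not tested. Slow-fibre genes also rose at 27 months, 5 of 6 in female and 3 of 6 in male gastrocnemius.

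Of 30 other genes of the pathway (antizymes, further oxidases and acetyltransferases, hypusine enzymes, ornithine and methionine supply, methylthioadenosine salvage and transporters), 25 to 27 could be tested per fit. At 27 months 3 rose and 5 fell in female gastrocnemius, 2 and 5 in male gastrocnemius, 3 and 2 in female soleus, 1 and 1 in male soleus, 5 and 0 in female tibialis anterior, 2 and 1 in male tibialis anterior, 0 and 0 in female and 1 and 1 in male diaphragm. The 30.8% of female gastrocnemius and the 26.9% of male gastrocnemius stand beside 29.3% and 23.3% of all genes, and in the other groups the share of the list was 20% in female soleus and female tibialis anterior, 12% in male tibialis anterior, 8% in male soleus, 7.41% in male and 0% in female diaphragm, against the shares of all genes given above. Their median change was between -0.04 and 0.10 in the 8 groups. Between the sexes 10 were higher and 8 lower in male gastrocnemius, 11 and 4 in tibialis anterior, 5 and 4 in soleus and 4 and 0 in diaphragm, and 1 of these, Mat1a in tibialis anterior, differed by more than 1.5-fold. These are 69.2%, 60%, 34.6% and 14.8% of the list, against 58.3%, 47.8%, 30.9% and 18.9% of all genes. After Mat1a the differences of largest size were those of Slc7a2, a transporter of cationic amino acids (0.48 ± 0.08 in the diaphragm), Adi1 of the methionine salvage pathway (0.48 ± 0.02 in the gastrocnemius) and Eif5a2, which encodes a form of the hypusine-bearing factor eIF5A (0.31 ± 0.04 in the gastrocnemius).

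Atp13a3, an endosomal polyamine transporter, rose at 27 months in every limb muscle of both sexes (levels here are CPM scaled to library size only). Its change was 1.14 ± 0.15 in female tibialis anterior (adjusted p = 7.25e-08), where the median went from 37.8 to 76.6 CPM, and 0.69 ± 0.08, 0.74 ± 0.12, 0.59 ± 0.11, 0.60 ± 0.15 and 0.54 ± 0.11 in female gastrocnemius, female soleus, male gastrocnemius, male soleus and male tibialis anterior. In female and male diaphragm it was 0.13 ± 0.11 and 0.08 ± 0.16 and did not pass. Mat1a, a methionine adenosyltransferase known for its expression in liver, and Arg1, the liver arginase, rose in female tibialis anterior by 3.58 ± 0.95 and 3.10 ± 0.80 from medians of 0.236 and 0.076 CPM to 1.35 and 0.638. In that comparison 13 of 14 liver transcripts rose (median 3.51), their summed level was 1.33 to 20.3 CPM at 6 months and 3.93 to 568.2 at 27, and their part in the change of Mat1a and Arg1 was not tested. Agmat, named for agmatinase activity, rose by 3.04 ± 0.77 in female gastrocnemius at a median of 0.011 CPM at 6 months and 0.113 at 27. Mat1a was lower in male than in female tibialis anterior (-1.51 ± 0.41). This difference rests on low levels, with age group medians of at most 1.35 CPM in females and 0.161 in males. The part of liver transcripts in the sex difference of Mat1a was not tested either.

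Over the 48 group means of log2 CPM, which share libraries and normalisation, Smox went with Sms (Pearson's r = 0.97), Amd1 and Amd2 (0.94 and 0.95), and opposite to Sat1 (-0.92). Odc1 correlated less with them (0.83 with Amd1, 0.70 with Smox), and Srm and Azin1 hardly, at most 0.34 and 0.52 with any member. Among 12440 genes, the most like Amd1 other than Amd2 (0.995) were Rab12 (0.98) and Sub1 (0.97). For Odc1 they were Serpinb6a, Pgap2 and Sbk2 (0.93, 0.91 and 0.91), for Smox Fbxl4, Jak1 and E130308A19Rik (0.99, 0.99 and 0.99), and for Sms Xpr1, Synm and Zfp652 (all 0.996). For Sat1 they were Pafah1b2, Nipsnap3b and Cd44 (0.97, 0.97 and 0.96), for Srm Syvn1, Foxp4 and Bax (0.78, 0.77 and 0.75), and for Azin1 Ppap2b, Map1b and Ccdc122 (0.90, 0.88 and 0.88). These values describe patterns over muscles, sexes and ages.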

How the data were processed

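RNA was measured in 407 libraries of mouse muscle by paired strand-specific sequencing of total RNA depleted of ribosomal RNA. The values are raw counts per gene, deposited by the authors, who aligned the reads to mm10 and counted them over a gene model of their own based on RefSeq with ArrayStudio. The software version, the handling of reads that match 2 genes and whether counting used strand are not given in the sources used here, so Amd1 and Amd2 were also tested as 1 summed row. Of 25091 rows, 633 repeats of a symbol were left out (0.0335% of counts), leaving 24458 symbols.

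Counts were scaled by TMM and filtered with filterByExpr. The quasi-likelihood test of edgeR 4.0.16 in R 4.3.3 was run on all genes that passed, with Benjamini-Hochberg adjustment, in 8 fits of muscle and sex (age), 4 of muscle (sex, sex by age) and 2 of sex (muscle, muscle by age). A further fit over all libraries compared the sex difference between muscles and was added after the data were seen. Changed means an adjusted p below 0.05. Alternatives were limma 3.58.1 (voom), DESeq2 1.42.0, size factors of DESeq2, no filter, Bonferroni, no fold limit, a replicate block, a run term, and leaving out libraries. The scripts were tested on simulated data. The rule for age trends compared a constant, a line and a logistic curve by the Bayesian information criterion, with margins of 6 and 2.

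The 8 genes and the other lists were chosen with earlier results of these data known. All 8 genes are named. Of 30 other pathway genes, those over 1.5-fold at 27 months (at most 6) and the 4 with the largest sex differences past the threshold are named, and for each of the 8 genes the 3 genes with the most similar pattern. Total counts were at least 38583802 per library. Promoter letters came from RefSeq tables of GRCm38.p6. Those of Srm and Azin1 were not used here.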

Additional observations from a re-analysis of the deposited data

Results flagged for a closer look

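Over 112 combinations of gene and group (6 and 27 months), 24 held a library that stood apart from the others of its group by Dixon's criterion, which chance meets in about 1 of 20. In the diaphragm, number 2 of the 6-month males was the lowest for Smox (0.0783 CPM) and Srm (0.235) and the highest for Sms (34.6), Sat1 (15.3), Azin1 (87.2) and the summed Amd genes (124). Number 2 of the 6-month females was the lowest for Smox (0.465) and Srm (0.552) and the highest for Azin1 (62.1) and the summed genes (71.1). Number 0 of the 27-month females was the lowest for Smox (0.352) and Srm (0.523) and the highest for Sms (24.6), Azin1 (66.2) and the summed genes (87.3). Among 27-month males, number 6 was the lowest for Smox (0.317) and the highest for Sat1 (14.0), and number 8 the highest for Odc1 (105).

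In the limb muscles, Odc1 stood apart at 361 CPM in male gastrocnemius of 27 months number 8 and at 31.5 in female tibialis anterior of 6 months number 1. Number 0 of 27-month female gastrocnemius was the lowest for Sms (48.7 CPM) and the summed genes (97.7). In soleus the highest were Sms in 27-month females number 7 (36.2 CPM) and Azin1 in 6-month males number 6 (69.0).

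Effects of a contrast differed between groups by a test of the difference itself. The change from 6 to 27 months, male minus female, was -0.87 for Amd2, -1.22 for Smox and -0.86 for the summed genes in the gastrocnemius and -0.79 for Amd1 in the soleus. Between muscles, that change in females was -0.70 for Odc1 and 0.50 for the summed genes (diaphragm minus gastrocnemius) and 0.37 for Azin1 (soleus minus tibialis anterior). In males, diaphragm minus gastrocnemius was 1.11 for Amd1, 0.90 for Amd2, 0.98 for their sum and 1.38 for Smox, and gastrocnemius minus soleus was -0.82 for Amd2 and -0.77 for the sum.

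The sex difference in the diaphragm minus that in the gastrocnemius was -1.43 for Odc1, -1.43 for Smox and -2.60 for the summed genes, and minus that in the tibialis anterior -0.93, -1.32 and -2.22. Gastrocnemius minus soleus was 1.62, 1.31 and 2.40, and soleus minus tibialis anterior -1.12, -1.20 and -2.03.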

How the results depend on the processing

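Beside the 47 calls for single genes and the summed Amd genes, 515 values under alternatives kept their direction and their side of the threshold, 55 kept their direction but no longer passed, 24 of them under Bonferroni, and 0 changed sign. Without the fold limit the members called at 27 months rose from 4 to 10 in males and from 1 to 6 in females, summed over muscles, and between the sexes the counts became 1 (diaphragm, from 0), 4 (soleus, from 0) and 8 (gastrocnemius and tibialis anterior, each from 4). Leaving out each replicate number gave 3 to 6 in males and 1 to 2 in females, with 2 when the female libraries numbered 2 or 4 were left out. Members whose change with age differed between muscles numbered 1 in females, 2 with Amd1 and Amd2 summed, 3 without the 9 libraries that stand apart (an alternative added after seeing the data) and 0 under Bonferroni, and 3 in males, 0 under Bonferroni. The cause was not tested.

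The labels tie no libraries of one number together, and libraries of one number did not all deviate together: over genes, 74 of 202 pairs of sexes, 369 of 939 of ages and 295 of 599 of muscles correlated over 0.1. Between limb muscles the share was higher, with 42 of 51 pairs for male soleus and tibialis anterior (median 0.263) and 38 of 51 for male gastrocnemius and tibialis anterior (0.273), so the muscle comparisons may treat muscles of one mouse as independent. With a replicate block the members called at 27 months were 5 in males and 1 in females, against 4 and 1, and the block ended the calls of Amd1 in male soleus (-0.41), Azin1 in female soleus (0.19) and Odc1 in male tibialis anterior (0.47). The block of age and replicate number for the muscle comparisons was not run in edgeR, and limma-voom was used for it. A fold limit could not be lifted for the muscle comparisons, which had none. Calls resting on Srm and Sat1, with medians of a few CPM, were among those lost without the libraries with liver transcripts (Srm in soleus -0.14, Sat1 in tibialis anterior -0.17).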

Other observations

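Among the 10 male libraries of 27 months, numbers 6 and 8 had the lowest summed Amd levels in the gastrocnemius (526.1 and 323 CPM, median of the others 1010) and in the tibialis anterior (423 and 213 CPM, others 700). Smox was lowest in the same numbers, at 45.7 and 46.4 CPM in the gastrocnemius (others 125) and 17.5 and 32.3 in the tibialis anterior (others 102). Number 8 had the highest Odc1 in the gastrocnemius (361 CPM, others up to 185), the tibialis anterior (196, others up to 155) and the diaphragm (105, others up to 33.7), and lay inside the range of the others in the soleus (61.2 CPM). The labels do not tie libraries of one number to one mouse.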
